A study of Mus musculus with 23 samples.

Results

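This account covers 10 genes of peptide signalling in cultured hippocampal neurons, chosen by name as neuropeptide precursors and granins. They are *Penk*, *Pdyn*, *Tac1*, *Cck* and *Adcyap1*, which encode precursors of small signalling peptides, and *Vgf*, *Chga*, *Chgb*, *Scg2* and *Scg3*, which encode granins and related secretory proteins. They were taken from the 56941 genes of the count files, and all 10 passed the filter on low counts that left 14488 genes for the test. The neurons came from hippocampi of newborn (P0) mice homozygous for Nedd8cKO, a conditional allele in which loxP sites flank the second and the third exon of *Nedd8*, and were infected on the first day in culture with lentivirus encoding RFP, or CRE recombinase with RFP. *Nedd8* encodes a ubiquitin-like protein that is attached to other proteins, and the comparison asks which transcripts differ once CRE has removed it. Both groups carried the floxed allele and a virus, both viruses used a synapsin promoter, which is active in neurons, and no uninfected culture is among these libraries. RNA was harvested after 12 days according to the labels, while the methods give a day later.

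Each library is named here by its group and a pair of numbers, and the first number is read as the culture, which the labels do not state. The libraries come from 3 animals or biological replicates by the legends, and no label ties a library to one of them, so the p-values below measure the spread between libraries, not between animals. Of 23 libraries, 12 CRE and 11 RFP, the 21 in the study's own count table were tested, 11 CRE and 10 RFP, with CRE 3-3 and RFP 3-2 left out. Totals ran from 7430401 to 17112815 counts in the 21 libraries. CRE 1-3 and RFP 2-4 stood apart by mitochondrial counts of 0.261% and 3.43%, against 7% to 11.1% in the other tested libraries. Of the 2 left out, CRE 3-3 held 1546796 counts, and 24.2% of the counts of RFP 3-2 fell on a ribosomal RNA gene. *Nedd8* lay between 5.92 and 18.0 CPM in the tested CRE libraries and between 44.1 and 76.0 in the RFP libraries, so the groups did not overlap. CPM are counts scaled to the library total with TMM factors, as the usual relative measure of a transcript. Summed neuron markers were lower in CRE libraries (4600 to 7950 CPM) than in RFP libraries (8140 to 9460), and summed astrocyte markers stood at 1680 to 5380 and 3740 to 8030 CPM, so the cultures held glia as well as neurons. In such bulk RNA, fewer cells of a type and less RNA per cell cannot be told apart.

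Neuropeptides are made as long precursors, sorted into dense-core vesicles, cut by convertases at pairs of basic residues, and released during strong or repeated firing to act on G-protein-coupled receptors. Granins are acidic proteins that aggregate in the trans-Golgi network, help to form these vesicles and are themselves cut into peptides. In the hippocampus, *Cck* is expressed by a class of GABA interneurons and by pyramidal cells, *Penk* and *Pdyn* are known from granule cells and interneurons, and *Vgf* and *Scg2* are known as genes induced by activity and growth factors.

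Several of these genes are textbook targets of CREB, the factor that binds the cyclic AMP response element (CRE element, unrelated to the CRE recombinase), so the bases before their starts are shown as context for the levels that follow. RefSeq promoter sequences of build GRCm38.p6 matched 8 of the 10 genes, and *Penk* and *Vgf* had no entry. Capitals mark a CRE element, TGACGTCA, or one of its arms, TGACG on this strand or CGTCA for the other. Each run holds the 250 bases before an annotated start, 5′ to 3′ on the strand of the gene. *Scg2* and *Chgb* are shown because they hold the full element, *Tac1* because its level tracked that of *Scg2*, and *Cck* and *Scg3* because they passed the test between the groups.

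Scg2 (chr1:79440027-79440276, minus strand): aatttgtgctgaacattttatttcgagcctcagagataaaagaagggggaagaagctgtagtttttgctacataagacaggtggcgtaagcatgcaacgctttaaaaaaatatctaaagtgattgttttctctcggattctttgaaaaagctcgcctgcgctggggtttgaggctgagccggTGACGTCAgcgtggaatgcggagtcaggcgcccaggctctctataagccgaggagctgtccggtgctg
Chgb (chr2:132781392-132781641, plus strand): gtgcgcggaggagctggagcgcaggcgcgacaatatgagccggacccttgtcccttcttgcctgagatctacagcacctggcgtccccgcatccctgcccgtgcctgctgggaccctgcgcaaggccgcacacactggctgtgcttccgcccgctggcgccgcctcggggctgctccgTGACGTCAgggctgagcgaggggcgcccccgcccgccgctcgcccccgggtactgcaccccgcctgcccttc
Tac1 (chr6:7554811-7555060, plus strand): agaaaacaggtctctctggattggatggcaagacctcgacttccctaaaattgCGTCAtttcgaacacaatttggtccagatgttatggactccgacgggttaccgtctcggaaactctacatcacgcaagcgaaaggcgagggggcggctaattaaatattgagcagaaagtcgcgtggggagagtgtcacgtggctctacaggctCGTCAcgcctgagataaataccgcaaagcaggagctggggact
Cck (chr9:121495695-121495944, minus strand): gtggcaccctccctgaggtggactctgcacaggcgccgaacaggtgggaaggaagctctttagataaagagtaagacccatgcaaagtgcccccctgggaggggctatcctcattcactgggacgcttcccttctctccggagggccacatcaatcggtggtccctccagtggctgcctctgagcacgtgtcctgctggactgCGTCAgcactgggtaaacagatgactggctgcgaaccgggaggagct
Scg3 (chr9:75684057-75684306, minus strand): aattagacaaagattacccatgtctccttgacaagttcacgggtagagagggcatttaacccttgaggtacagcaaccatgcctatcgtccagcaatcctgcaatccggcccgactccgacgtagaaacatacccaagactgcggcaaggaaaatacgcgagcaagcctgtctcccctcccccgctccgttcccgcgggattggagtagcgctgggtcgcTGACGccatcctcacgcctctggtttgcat

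The full element began 68 bases before the start in *Scg2* and 72 bases before it in *Chgb*. It was present in 1.55% of the 32851 promoter windows of this length, and an arm, counted also inside a full element, was present in 17.8%. At least 1 arm was found in 7 of the 8 genes, *Pdyn* being the one without. *Tac1* held arms beginning 197 and 43 bases before its start, *Cck* 1 at 47, *Scg3* 1 at 30, *Chga* 1 at 44 and *Adcyap1* 1 at 91 before the first of its annotated starts. A match describes the letters and is no evidence of binding.

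Between CRE and RFP libraries *Cck* fell 3.08-fold, *Vgf* and *Scg3* rose, by 2.02-fold and 1.31-fold, and the other 7 genes did not pass the test. A gene was called at an adjusted p under 0.05 in the quasi-likelihood test of edgeR, with Benjamini-Hochberg adjustment across the 14488 genes. By that rule 30.2% of all genes were called, 16.4% higher and 13.8% lower in CRE libraries, and the counts among the 10 genes, 2 higher and 1 lower, are near these shares. The median log2 fold change (CRE minus RFP) of the 10 genes was 0.32, beside 0.02 over all genes tested. In none of the 10 did the groups separate fully, which they did in 4.72% of all genes.

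**Figure D1:**
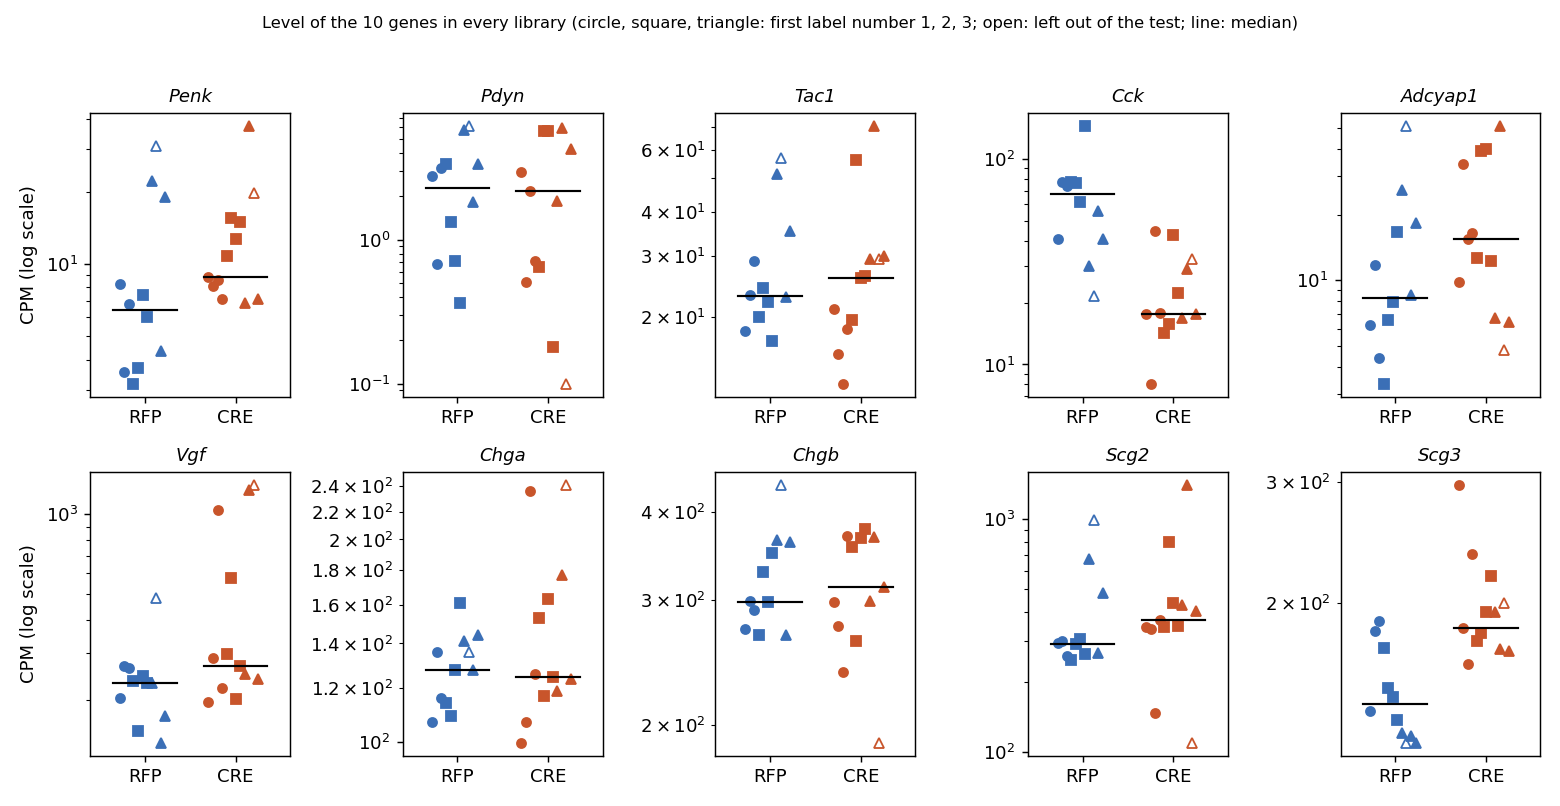
Level of each of the 10 genes in every library, in CPM on a log axis with its own range in each panel, for RFP (blue) and CRE (orange) libraries. Circles, squares and triangles mark cultures 1, 2 and 3, open symbols the 2 libraries left out of the test, and lines the medians of the tested libraries. *Cck* is the panel in which most CRE libraries lie below all RFP libraries, and in *Vgf* the tested libraries CRE 1-3 and CRE 3-2 lie at 1040 and 1240 CPM. For *Pdyn*, the open CRE symbol at the lower edge stands for 0 CPM.

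*Cck* (ENSMUSG00000032532, chromosome 9, 121315695 to 121324863 of GRCm39, minus strand) encodes the precursor of cholecystokinin. It ranged from 30.0 to 144 CPM in the 10 RFP libraries (median 67.7) and from 8.05 to 44.7 in the 11 CRE libraries (median 17.5). In 9 CRE libraries it was under the lowest RFP value, and the 2 that reached into the RFP range were CRE 1-3 at 44.7 and CRE 2-3 at 42.5 CPM. The means were 67.8 ± 32.0 (SD, n = 10) and 22.4 ± 11.7 (SD, n = 11) CPM, which in edgeR was a difference of -1.62 on the log2 scale (SE, the standard error, 0.27 and adjusted p = 5.58e-05), a 3.08-fold lower level. The decrease stood in each culture as read from the labels, with log2 fold changes of -1.58, -1.94 and -1.01 in cultures 1, 2 and 3. CRE and RFP libraries that share a number showed little shared deviation across genes, and no label states that they are pairs. The values by culture are therefore not read as paired comparisons. RFP libraries of culture 3 averaged the lowest of their group, 42.2 CPM, against 64.0 in culture 1 and 89.9 in culture 2. The left-out library RFP 3-2 was lower still, at 21.6 CPM, and over all 23 libraries the difference was -1.47.

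Markers of cells that express *Cck* moved as well. Of 14 pyramidal neuron markers, 9 fell and none rose, and their sum was 2760 to 5110 CPM in RFP and 1200 to 2430 in CRE libraries, without overlap. Of 16 GABA neuron markers, 5 rose and 2 fell with a median log2 fold change of 0.27, while their sum leaned the other way, at 2460 to 4030 in RFP and 1890 to 3530 in CRE libraries. Over all genes 16.4% rose and 13.8% fell. The part of these markers in the lower *Cck* was not tested. Annotated genes on the opposite strand overlap exons of *Cck* over 418 and 276 bases, and neither of them is in the count files. Such overlaps also exist for *Penk* (390 bases), *Chgb* (337), *Adcyap1* (267) and *Scg3* (178). The strand setting of the counting is not given in the sources used here.

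*Adcyap1* (ENSMUSG00000024256, chromosome 17) encodes the precursor of PACAP, a peptide that raises cyclic AMP in its target cells. Its level was low, from 3.34 to 26.0 CPM in RFP (median 8.26) and from 6.45 to 51.1 in CRE libraries (median 15.4). The libraries CRE 3-2, 2-3, 2-2 and 1-2, between 34.2 and 51.1 CPM, lay above every RFP library, and CRE 3-1 and 3-4, at 6.72 and 6.45 CPM, lay under the RFP median. The means were 11 ± 7.24 (SD, n = 10) and 22.2 ± 15.8 (SD, n = 11) CPM, with a log2 fold change of 1.01 (SE 0.39, 95% interval 0.20 to 1.81) and an adjusted p = 0.0544 from edgeR's test, just short of the threshold. The difference was 1.31 and 1.58 on the log2 scale in cultures 1 and 2 and 0.27 in culture 3. DESeq2 gave 1.00 with an adjusted p = 0.0325 and limma-voom 1.03 with an adjusted p = 0.0185, whereas with all 23 libraries edgeR gave 0.54. Left-out RFP 3-2, at 51.0 CPM, was as high as the highest CRE library.

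*Penk*, the precursor of the enkephalins, lay between 3.17 and 22.2 CPM in RFP (median 6.41) and between 6.91 and 37.5 in CRE libraries (median 8.80). In RFP the 2 highest libraries were both of culture 3, RFP 3-1 at 22.2 and RFP 3-4 at 19.1 CPM, and the remaining 8 stayed at or below 8.28. CRE 3-2 alone exceeded RFP 3-1, while 6 RFP libraries lay below every CRE library. Its log2 fold change was 0.56 (SE 0.36, edgeR adjusted p = 0.269), and by culture it was 0.37, 1.38 and 0.17. With culture 3 left out, it was 0.91 with an adjusted p = 0.0187.

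*Tac1*, which encodes substance P and neurokinin A, showed no difference past its spread, with RFP libraries at 26.3 ± 10.3 (SD, n = 10) CPM and CRE libraries at 29.6 ± 17.8 (SD, n = 11). It ran from 17.1 to 51.4 CPM in RFP (median 22.9) and from 12.9 to 70.4 in CRE libraries (median 25.9), and the groups overlapped almost throughout. The log2 fold change was 0.16 (95% interval -0.38 to 0.70, edgeR adjusted p = 0.704). *Pdyn*, the precursor of the dynorphins, was the least abundant of the 10, with 2 to 75 counts in any tested library. It lay between 0.363 and 5.78 CPM in RFP (median 2.29) and between 0.181 and 5.95 in CRE libraries (median 2.18), and its log2 fold change of 0.25 had a 95% interval from -0.84 to 1.34. A 2-fold increase lay inside that interval.

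*Vgf* (ENSMUSG00000037428, chromosome 5, 137055246 to 137062205 of GRCm39, plus strand) encodes a secreted precursor that is cut into several bioactive peptides. It ranged from 138 to 269 CPM in RFP libraries (median 232) and from 197 to 1240 in CRE libraries (median 268). The higher mean in CRE libraries came from few of them. CRE 3-2 held 1240 CPM, CRE 1-3 1040 and CRE 2-2 576, and the remaining 8 lay between 197 and 299, among which CRE 2-1 and 1-2 alone lay above the highest RFP value. The means were 215 ± 46.0 (SD, n = 10) and 438 ± 364 (SD, n = 11) CPM, and the log2 fold change was 1.01 (SE 0.31, edgeR adjusted p = 0.0133).

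The call for *Vgf* depended on CRE 1-3, without which the log2 fold change was 0.80 and the adjusted p = 0.0524, and it was lost with any culture left out (adjusted p 0.0552 to 0.12), over the 19 libraries without the 4 that stood apart (0.81, adjusted p = 0.0667) and with limma-voom (0.40, adjusted p = 0.078). CRE 1-3 had the lowest mitochondrial share of all libraries, and left-out CRE 3-3, with 1290 CPM of *Vgf*, the second lowest, at 1.83%. The transcript of *Vgf* had the highest GC content of the 10, 64.8%, and with the trend of each library with GC content removed, its log2 fold change was 1.03 (edgeR adjusted p = 0.00515) in the 21 libraries and 0.81 (adjusted p = 0.0261) in all 23, where it was 1.09 before.

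*Scg3* (ENSMUSG00000032181, chromosome 9, 75546929 to 75591396 of GRCm39, minus strand) encodes secretogranin III, which tethers chromogranin A to the membrane of forming granules. It was the granin whose groups separated best. It lay between 125 and 188 CPM in RFP libraries (median 143) and between 163 and 297 in CRE libraries (median 184). In all, 7 RFP libraries lay below every CRE library and 5 CRE libraries above every RFP library. CRE 1-1 stood highest, at 297 CPM. The means of 150 ± 23.2 (SD, n = 10) and 199 ± 39.3 (SD, n = 11) CPM gave a log2 fold change of 0.39 (SE 0.11, edgeR adjusted p = 0.00997), or 30.9% more. By culture it was 0.34, 0.33 and 0.48, the most even of the 3 called genes. With each culture summed to 1 sample the value was 0.37 and no longer passed the test (adjusted p = 0.0604), nor did it with culture 2 or culture 3 left out (adjusted p = 0.108 and 0.0942).

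*Scg2*, secretogranin II, the precursor of secretoneurin, had the highest mean of the 10 in both groups, although its RFP median was below that of *Chgb* (299 CPM). It ranged from 248 to 672 CPM in RFP (median 293) and from 147 to 1400 in CRE libraries (median 368). CRE 3-2 at 1400 and CRE 2-2 at 795 CPM lay above every RFP library, and CRE 1-3, one of the highest libraries for *Vgf*, was the lowest of all tested libraries for *Scg2*. The log2 fold change was 0.51 (SE 0.28, edgeR adjusted p = 0.176), and it was 0.17 without CRE 3-2.

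*Chga* and *Chgb*, the chromogranins A and B that make up much of the core of the granule, differed least between the groups. The RFP libraries held 310 ± 38.6 (SD, n = 10) CPM of *Chgb*, from 268 to 365, and the CRE libraries 321 ± 49.7 (SD, n = 11), from 238 to 378. Its log2 fold change of 0.03 had a 95% interval from -0.18 to 0.24, and its sign turned under several of the alternatives. *Chga* stood at 128 ± 17.5 (SD, n = 10) and 140 ± 39.5 (SD, n = 11) CPM, with a log2 fold change of 0.11 (95% interval -0.16 to 0.39). Its highest library was CRE 1-3, at 236 CPM, which was the lowest tested library for *Chgb*, at 238.

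**Figure D2:**
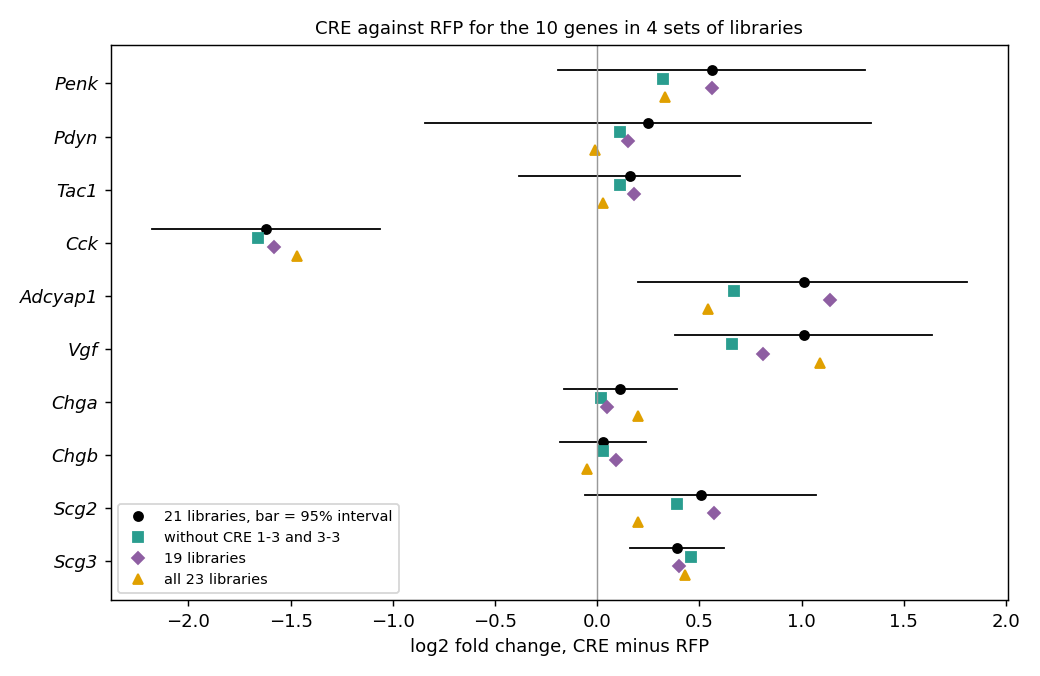
Log2 fold change of CRE minus RFP libraries for the 10 genes, with the 95% interval of the test over 21 libraries (black) and the values in 3 other sets of libraries. *Cck* stays between -1.66 and -1.47 in all 4 sets, and *Vgf* moves from 1.01 in the 21 libraries to 0.66 in the set that drops CRE 1-3 and CRE 3-3 and takes in RFP 3-2.

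The difference between CRE and RFP was also compared between cultures. In a fit with an interaction of group and culture, none of the 10 genes passed an adjusted p under 0.05, nor an unadjusted one (lowest p = 0.104, for *Tac1*, edgeR). Over all genes 1 passed (0.0069%), and 595 had an unadjusted p under 0.05. Each group had 3 or 4 libraries per culture, and no label states that equal numbers mean the same culture. The fit therefore cannot show that the difference was alike between cultures.

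The genes also differed in which libraries were high, regardless of group. CRE 3-2 was the highest of the 21 tested libraries for 6 genes, *Penk*, *Pdyn*, *Tac1*, *Adcyap1*, *Vgf* and *Scg2*, and among the 3 highest for 8. CRE 2-2 was among the 3 highest for 5 of the genes and RFP 3-1 for 4. Those 4 were *Penk*, *Pdyn*, *Tac1* and *Scg2*. The left-out library RFP 3-2 held 30.9 CPM of *Penk*, 6.11 of *Pdyn*, 56.9 of *Tac1* and 51.0 of *Adcyap1*. It also held 485 CPM of *Vgf*, 436 of *Chgb* and 987 of *Scg2*, and all of these values lay above every tested RFP library. High levels of these genes thus occurred with both viruses, though for *Vgf* the tested RFP libraries reached no more than 269 CPM. *Vgf* and *Adcyap1* were high in culture 1 as well, at 1040 CPM in CRE 1-3 and 34.2 CPM in CRE 1-2. *Cck* did not follow one direction in these libraries. It stood at 29.0 CPM in CRE 3-2, above the CRE median of 17.5, at 15.8 in CRE 2-2, below it, and at 30.0 in RFP 3-1, the lowest of the RFP libraries tested.

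Some immediate early genes, which neurons switch on within minutes of activity, were high in part of these libraries, and others were not. *Fos*, *Fosb* and *Npas4*, named after their values were seen, stood at 95.3, 27.7 and 58.0 CPM in CRE 3-2, the highest of the tested libraries for each. Between the groups *Fos* and *Fosb* were called higher in CRE libraries, by 1.26 and 1.78 on the log2 scale (edgeR adjusted p = 0.00588 and 0.00184). *Npas4* and *Egr1* were not called (0.31 and -0.29, edgeR adjusted p = 0.66 and 0.347). *Fos* was at 59.7 CPM in CRE 2-2 and 65.2 in left-out RFP 3-2, beside CRE and RFP medians of 20.9 and 11.1. In RFP 3-1 it was at 18.6 CPM, between those medians, and in RFP 3-4 at 10.3 CPM, under both. *Npas4* was at 12.2 CPM in RFP 3-1, 25.1 in RFP 3-4 and 42.0 in left-out RFP 3-2, beside an RFP median of 10.4. *Fosb* was at 2.99 CPM in RFP 3-1 and 1.41 in RFP 3-4, under its RFP median of 3.04, and at 5.03 in RFP 3-2. *Egr1*, another such gene, was at the CRE median of 50.4 CPM in CRE 3-2, at 36.9 in CRE 2-2, the lowest of all libraries, and at 42.8 in RFP 3-2. CRE 3-2 also had the most genes detected, 23738, and the lowest sum of astrocyte markers, 1680 CPM. The part of any of these in the peptide genes was not tested.

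**Figure D3:**
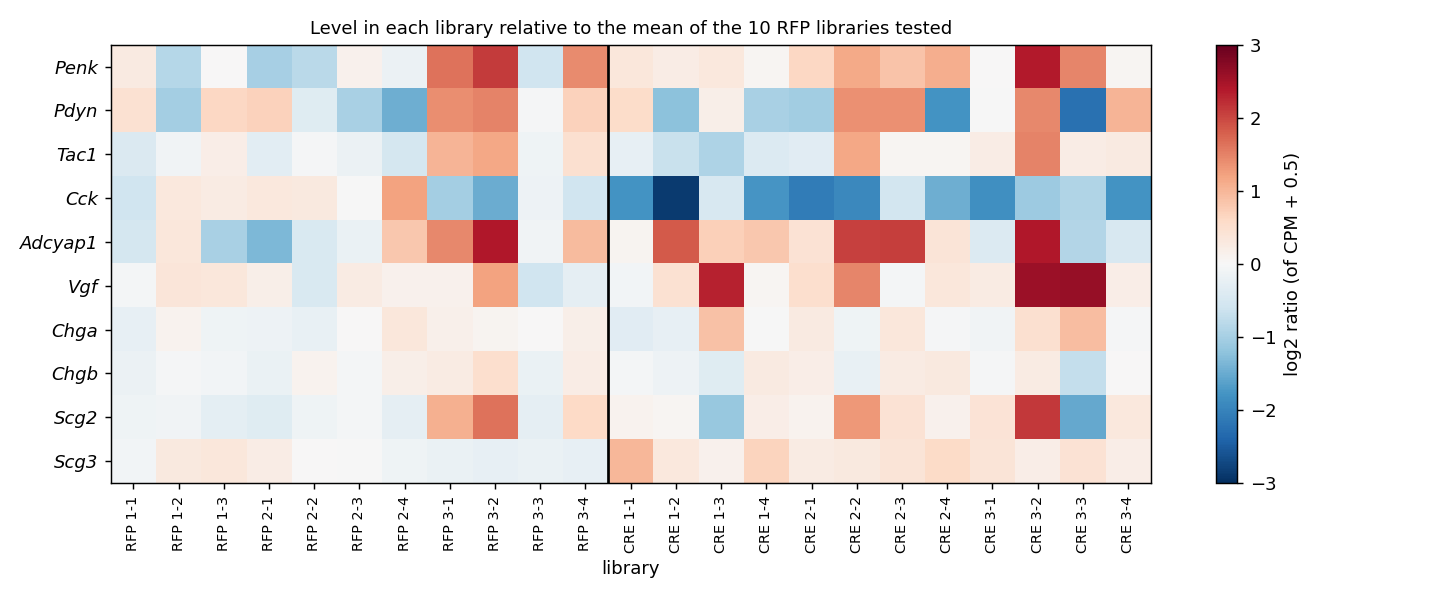
Log2 ratio of the level (CPM + 0.5) of each gene in each of the 23 libraries to the mean of the 10 tested RFP libraries, red for higher and blue for lower. *Penk*, *Tac1*, *Adcyap1* and *Scg2* are red together in RFP 3-1, RFP 3-2, RFP 3-4, CRE 2-2 and CRE 3-2, while *Cck* is blue in all 12 CRE libraries.

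For each gene, the one among 14448 others whose profile over the 21 libraries was most like it was found by the mean absolute difference of centred log2 levels. *Tac1* and *Scg2* were each other's nearest, at 0.23 log2 units, beside medians over all genes of 0.59 for *Tac1* and 0.61 for *Scg2*. No other pair of the 10 was mutual. *Chga* and *Chgb*, the least variable, had near partners outside the set, *Gdap1l1* at 0.10 and *Gabarapl1*, an autophagy gene, at 0.11. The nearest gene to *Scg3* was *Efcab14* at 0.14, to *Vgf* *Ngef* at 0.28, to *Cck* the sterol reductase gene *Tm7sf2* at 0.37 and to *Adcyap1* *Stc2* at 0.39. *Penk* was nearest to *Gabrd*, a GABA receptor subunit gene, at 0.40, and *Pdyn* to *Hrc* at 0.57. These distances describe 21 libraries that share cultures, and genes that vary little have small distances by construction.

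Levels per kilobase of transcript placed the granins above the peptide precursors. In RFP libraries *Scg2* was highest, at 135 ± 53.7 CPM per kb (SD, n = 10), followed by *Chgb* at 85.2, *Vgf* at 83.5, *Chga* at 65.8 and *Scg3* at 48.7. *Chgb* and *Vgf* did not differ beyond their spread, each being the higher in 5 of 10 libraries. Among the precursors *Cck* led at 17.0 CPM per kb, before *Tac1* at 11, *Penk* at 3.08, *Adcyap1* at 2.30 and *Pdyn* at 0.896. The steps from *Scg3* to *Cck* and from *Tac1* to *Penk* held in 10 of 10 libraries, while *Penk* exceeded *Adcyap1* in 6. In CRE libraries *Cck* moved below *Tac1*, at 5.61 against 12.4 CPM per kb, an order found in 10 of 11 libraries. *Vgf* took the second place by its mean, at 170 ± 142 CPM per kb (SD, n = 11), and *Adcyap1* and *Penk* stood level at 4.66 and 4.57.

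Receptors for these peptides or for related ones were measured in the same libraries, and 9 of 14 listed were abundant enough to be tested. Of these 3 fell and 1 rose, with a median log2 fold change of -0.18, beside 13.8% lower and 16.4% higher over all genes. *Adcyap1r1*, the PACAP receptor, was the most abundant. It stood at 193 to 377 CPM in RFP (median 272) and 100.0 to 185 in CRE libraries (median 148). Its groups did not overlap, which was so for 4.72% of all genes. It fell by 1.03 on the log2 scale (edgeR adjusted p = 1.11e-06), while the estimate for *Adcyap1* itself was a 2.01-fold higher level that did not pass the test. *Tacr3*, the neurokinin B receptor, fell by 1.78 (adjusted p = 0.00212) and *Oprl1*, the nociceptin receptor, by 0.76 (adjusted p = 0.00214). *Tacr3* and *Oprl1* are thus named for peptides of other precursors. Of the receptors that fell, *Adcyap1r1* alone is named for a peptide of the set. *Vipr2*, a receptor for VIP and PACAP, rose by 1.23 from 1.01 CPM (adjusted p = 0.0271, all from edgeR). *Cckbr*, the main cholecystokinin receptor of the brain, had a log2 fold change of -0.62 with an adjusted p = 0.09.

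Of 45 further neuropeptide precursors listed, 13 were tested, with a median log2 fold change of 0.47. Of the 13, 5 rose and 3 fell, beside 16.4% higher and 13.8% lower over all genes. *Adm*, which encodes adrenomedullin, rose most, from 3.23 ± 3.52 (SD, n = 10) to 20.8 ± 8.93 (SD, n = 11) CPM, a log2 fold change of 2.67 (edgeR adjusted p = 5.08e-05). *Npy*, neuropeptide Y of GABA interneurons, rose by 1.63 (adjusted p = 0.0152) and *Pthlh* by 1.48 (adjusted p = 0.0274). Over the 19 libraries these 2 lost their calls (adjusted p = 0.0569 and 0.0818). *Grp* and *Nucb2* rose as well, by 0.99 and 0.92. The 3 that fell were *Vip*, by 2.19 (adjusted p = 0.000281), *Sst*, the somatostatin gene of another class of interneurons, by 1.07 (adjusted p = 0.0042), and *Nppc*, by 1.29 (adjusted p = 0.00724). *Npy* was highest in CRE 3-2, at 105 CPM, as were 6 of the 10 genes, and *Sst* was highest in RFP 3-4 and 3-1, at 415 and 407.

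All 19 genes listed for the processing of peptide precursors were tested, with a median of -0.06. Of these 2 rose and 4 fell, beside 16.4% higher and 13.8% lower over all genes. *Cpe*, carboxypeptidase E, which trims the basic residues left by the convertases, was the most abundant and rose by 0.40 (edgeR adjusted p = 0.0206), from 1020 ± 178 (SD, n = 10) to 1370 ± 282 (SD, n = 11) CPM. *Ctsl*, which encodes cathepsin L, rose by 0.67 (adjusted p = 0.000343). *Cpm* fell by 1.66 (adjusted p = 4.15e-06), *Pcsk5* by 1.13 (adjusted p = 0.000171) and *Scg5*, which encodes the 7B2 chaperone of convertase 2, by 0.79 (adjusted p = 0.000761). The 2 convertases of neuroendocrine granules did not pass, *Pcsk1* with a log2 fold change of -0.34 (adjusted p = 0.467) and *Pcsk2* with -0.28 (adjusted p = 0.204).

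Of 42 tested genes for the formation and release of dense-core vesicles, 15 fell and 2 rose, with a median of -0.23, beside 13.8% lower and 16.4% higher over all genes. Neuron markers moved the same way, with 8 of 14 lower, 1 higher and a median of -0.56, and their part in this list was not tested. The lowest p-values among those that fell belonged to *Ptprn2*, phogrin, a membrane protein of the vesicle (log2 fold change -0.93, edgeR adjusted p = 8.68e-06), *Vamp2*, the vesicle SNARE (-0.49, adjusted p = 2.98e-05), and *Stx1a*, its partner on the plasma membrane (-1.04, adjusted p = 3.82e-05). Both SNAREs also serve synaptic vesicles. *Cyb561* and *Arfip1* rose, by 0.54 and 0.81. *Cadps*, the priming factor CAPS1, had a log2 fold change of 0.34 that did not pass (adjusted p = 0.0644), and its relative *Cadps2* fell by 1.17 (adjusted p = 0.00154).

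Among 24 listed regulators of peptide gene transcription, 9 rose and 3 fell, beside 16.4% higher and 13.8% lower over all genes. The median of the list was 0.22. *Fosl2* rose by 0.86 (edgeR adjusted p = 2.63e-05), *Atf3* by 2.67 (adjusted p = 0.000346) and *Rest*, a repressor of neuronal genes, by 0.80 (adjusted p = 0.000512). *Kcnip3*, which encodes the calcium sensor DREAM, a repressor of *Pdyn*, fell by 0.96 (adjusted p = 4.34e-05), *Rcor2* by 1.62 (adjusted p = 0.000109), and the neuronal transcription factor gene *Neurod1* by 0.77 (adjusted p = 0.000828). *Creb1* had a log2 fold change of -0.29 that did not pass (adjusted p = 0.3).

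**Figure D4:**
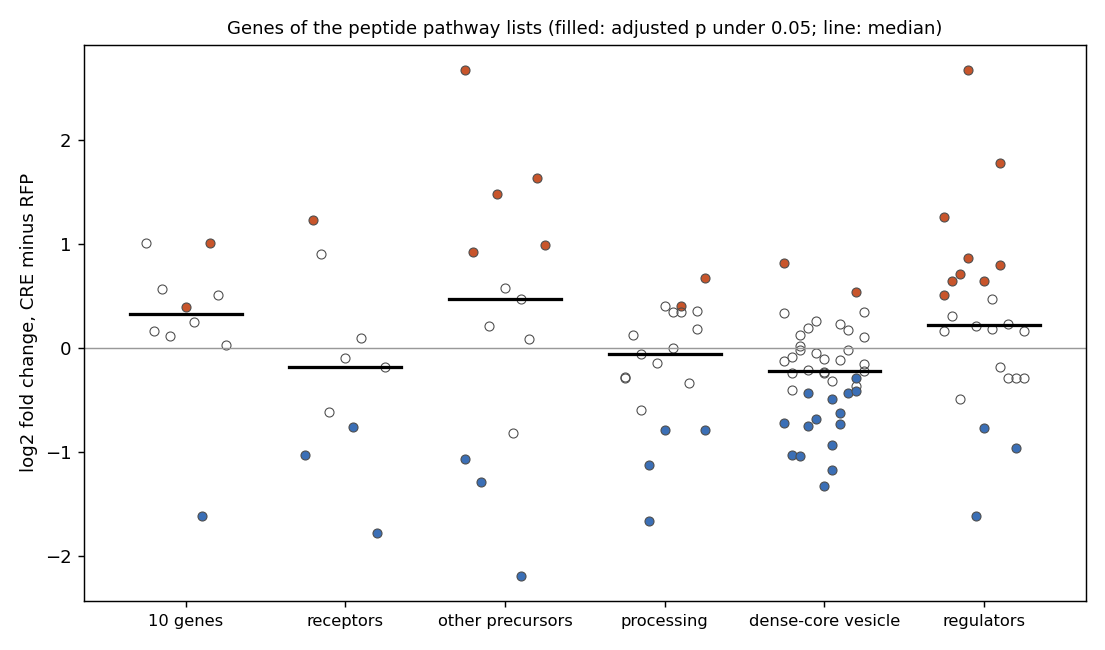
Log2 fold change of CRE minus RFP libraries for each tested gene of the 10 and of the 5 pathway lists, one circle a gene, filled orange for called higher, blue for called lower and open for not called, with the median of each list as a line. The dense-core vesicle list has the lowest median, -0.23, and the further precursors the highest, 0.47.

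Of the markers of other cells, 8 of 11 tested for the oligodendrocyte lineage fell. The list summed to 694 to 2380 CPM in RFP (median 1870) and 452 to 1980 in CRE libraries (median 832). The lowest RFP sum was that of RFP 3-1 and the highest CRE sum that of CRE 1-3. Of 12 astrocyte markers 4 fell and 3 rose, of 9 dentate granule markers 5 fell and none rose, and of 14 neuron markers 8 fell and 1 rose. Over all genes 13.8% fell and 16.4% rose. Microglia markers summed to at most 14.1 CPM in any tested library, with *Cx3cr1* at 0 in every CRE library, and endothelial and mesenchymal markers to at most 387. Their part in the levels of the 10 genes was not tested.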

How the data were processed

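Total RNA of primary hippocampal cultures was sequenced, and the authors deposited, for each of 23 libraries, raw counts of reads per gene, without normalization. Per the labels, bcl2fastq 2.20.0.422, STAR 2.7.8a and featureCounts 1.5.0-p1 were used with GRCm39. Libraries were stranded and selected for mRNA. The strand setting of the counting and the treatment of reads that map to several places are not given in the sources used here, so counts of overlapping genes are uncertain. Symbols came from GENCODE M39 (GRCm39), which matched 56323 of the 56941 genes and 99.95% of counts.

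Groups were compared in R 4.3.3 with edgeR 4.0.16 (filterByExpr, TMM factors, robust glmQLFit, glmQLFTest, Benjamini-Hochberg adjustment over 14488 genes) on 21 libraries, those of the study's count table. The methods name another pair of removed libraries, which is among the alternatives. CPM were computed once over all 23 libraries. Levels per kb used the length of the canonical transcript. A replicate block was tried because libraries share numbers, and the 10 genes, the gene lists and the tests were chosen with earlier results of these data known. Named were all 10 genes, *Nedd8*, every receptor called, up to 3 called genes in each direction and list with the smallest p, and the nearest profile of each gene. *Grp*, *Nucb2*, *Cckbr*, *Pcsk1*, *Pcsk2*, *Cadps*, *Cadps2*, *Creb1*, *Fos*, *Fosb*, *Npas4* and *Egr1* fall outside this rule and were named after their values were seen.

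The 35 alternatives covered other library sets, DESeq2 1.42.0, limma-voom (limma 3.58.1), scaling, the filter, blocks, sums per culture and libraries or cultures left out. A further 2, in which the dependence of a library's levels on GC content was removed, on 21 and 23 libraries, were chosen after seeing the data, and 14449 tested genes had a GC value. The fits were tested on simulated data. Other values came from Python 3.11.15 with pandas 2.3.3 and numpy 2.4.6, and figures from matplotlib 3.10.9.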

Additional observations from a re-analysis of the deposited data

Results flagged for a closer look

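For each of the 10 genes, the highest and lowest of the 10 RFP libraries were checked by their gap to the nearest other library. The gap was taken in CPM over the range of the group (Dixon's test). By chance this marks about 5% of groups of normally distributed values, and whether these CPM are so distributed was not tested. *Tac1* was marked in RFP 3-1, at 51.4 CPM, with a gap of 0.472 of the range. *Cck* was marked in RFP 2-4, at 144 CPM, with a gap of 0.587 of the range. Without RFP 3-1 the log2 fold change of *Tac1* was 0.32 (edgeR adjusted p = 0.392), and without RFP 2-4 that of *Cck* was -1.41 (adjusted p = 0.000138).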

How the results depend on the processing

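*Cck* kept its direction and its call in all 37 alternatives (log2 fold change -1.82 to -1.31, adjusted p 6.57e-08 to 0.0127), and *Chga* and *Scg2* were called in none. *Vgf* lost its call in the set of the methods, which drops CRE 1-3 and CRE 3-3 and takes in RFP 3-2 (0.66, adjusted p = 0.116), over 19 libraries (0.81), with limma-voom (0.40, adjusted p = 0.078) and, with a library or culture left out, ranged from 0.70 to 1.21. *Scg3* lost it with counts summed per culture (0.37) and ranged from 0.29 to 0.44 with one left out. *Adcyap1* gained a call with DESeq2 (1.00), limma-voom (1.03) and sums per culture (0.99), and with one left out ranged from 0.67 to 1.43. *Penk* gained one with limma-voom (0.69, adjusted p = 0.0491) and ranged from 0.17 to 0.91. The sign turned for *Pdyn* in all 23 libraries (-0.01), with limma-voom (-0.53) and with the GC trend removed in 23 libraries (-0.08), and for *Chgb* in all 23 (-0.05) and with the GC trend removed (0 in 21 and -0.08 in 23 libraries). With one left out it turned for *Pdyn* (-0.15 to 0.54), *Tac1* (-0.09 to 0.41) and *Chgb* (-0.03 to 0.07). None of these 3 was called in any setting. The cause was not tested.

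Of the 10 genes, those called higher numbered 1 in the set of the methods and over 19 libraries, and 0 to 3 with one left out. All genes called numbered 6920 without the filter on low counts, where more genes were tested, and 2114 to 5507 with one left out, the lowest without culture 2. Called higher among the further precursors were 3 over 23 and over 19 libraries and 8 with DESeq2, beside 5. Called lower were 5 regulators in the set of the methods and with limma-voom and 6 over 19 libraries, beside 3. The limma-voom fit also gave 8 processing genes lower, beside 4, and 4 dense-core vesicle genes higher, beside 2. Receptors called higher were 2, beside 1, with DESeq2, limma-voom and in the set of the methods. GABA neuron markers called lower were 4 in the set of the methods and over 19 libraries and 5 with limma-voom, beside 2. The median of all genes lay within 0.14 of 0 in every setting.

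CRE and RFP libraries of cultures 1, 2 and 3 deviated together with r of 0.04, 0.00 and 0.15 across genes. These values cannot settle whether the numbers pair the libraries. *Penk*, *Pdyn*, *Tac1* and *Scg2* averaged highest in culture 3 in both groups, *Cck* in culture 2 and *Scg3* in culture 1. For *Adcyap1*, *Vgf*, *Chga* and *Chgb* the culture with the highest mean differed between the groups. With culture as a replicate block 4267 genes were called and *Adcyap1* gained a call (1.12, adjusted p = 0.0378), and with the library number as a replicate block 4235 genes were called and no call among the 10 changed.

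Counts were lowest for *Pdyn*, at 2 to 75 a library, and the granins had at least 1063 in every tested library. The shares of counting error and of spread between libraries were not compared.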
